A study of Homo sapiens with 15 samples.

Results

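The 48 genes described here carry out or control mitosis: the cyclin-dependent kinase CDK1 with its cyclins and CDC25 phosphatases, the Polo-like, Aurora and NEK kinases, the spindle checkpoint, the kinesin motors of the spindle, the proteins of the centromere and kinetochore, the chromosomal passenger subunits, and spindle and cytokinesis factors. They were chosen by gene symbol, and all 48 were listed once in each of the 3 deposited tables, which hold 13751 genes for PC3, 12998 for P493-6 with MYCi975 and 13703 for P493-6 with tetracycline (16109 genes in any table). The series holds 15 exon-capture RNA-seq libraries in 5 groups of 3, from cell lines treated for 24 h and grown in RPMI medium with 10% serum. The groups were PC3 with 8 µM MYCi975 and PC3 with DMSO, and P493-6 with 6 µM MYCi975, P493-6 with 0.1 µg/ml tetracycline and P493-6 with DMSO. PC3 is a prostate cancer line that makes MYC from its own gene, and P493-6, labelled a Burkitt lymphoma line, carries an introduced MYC gene that tetracycline turns off. MYCi975 is a small-molecule inhibitor of MYC given in DMSO. Tetracycline was given in water, so its vehicle differed from that of its DMSO controls, and the same 3 DMSO libraries served both P493-6 treatments. The study asked how far MYCi975 acts on the genes that MYC controls. Each line stands as 1 model, and the labels do not state whether replicate libraries were grown apart, so the error behind each p-value is that among 3 libraries and could be purely technical.

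Genes of mitosis are made in waves: their messages accumulate in G2, serve one division and decline again. CDK1 bound to cyclin B starts mitosis, the kinesins and kinetochore proteins attach chromosomes to the spindle, the checkpoint proteins hold the anaphase-promoting complex (APC/C) in check until every chromosome is attached, and the passenger complex and its partners carry the cell through division. Their promoters commonly hold a cell cycle genes homology region (CHR), bound by MuvB complexes with B-MYB, FOXM1 or the DREAM repressor, and CCAAT boxes bound by NF-Y, whereas MYC with MAX binds E-boxes.

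The promoters are shown because the members share a class of elements. Of the 48 members, 41 matched a RefSeq promoter table (GRCh38.p14, 250 bases before to 50 after each start site), with 54 promoters in all; AURKA, BIRC5, BUB3, FOXM1, TPX2, TTK and UBE2C had no entry there. A CHR, searched as TTTGAA or TTCGAA on both strands, was found in 37 of 54 member promoters (68.5%), against 16.4% of all 35116 promoters of that length. A CCAAT box, searched as CCAAT on both strands, was found in 39 of 54 (72.2%), against 34.6% of all. An E2F site, searched as TTCCCGC or TTGGCGC, was in 12 of 54 (22.2%), against 9.23% of all. An E-box, searched as CACGTG, was in 5 of 54 (9.26%), against 7.26% of all. A match is a string of letters and not a measured site. Below, the 120 bases before the start site of 8 members that the results turn on are given 5′ to 3′ on the gene's strand, with CHR and CCAAT letters (or their complement, TTCAAA and ATTGG) in capitals. PLK1 (chr16:23678769-23678888, plus strand), CDC20 (chr1:43358861-43358980, plus), CCNB2 (chr15:59105026-59105145, plus), KIF11 (chr10:92593010-92593129, plus) and MKI67 (chr10:128126424-128126543, minus) hold both elements, and in MKI67 one of each shares a base. KIFC1 (chr6:33391703-33391822, plus) and KIF20A (chr5:138178992-138179111, plus) hold CCAAT boxes and no CHR in these 120 bases. MAD2L1 (chr4:120066849-120066968, minus) holds neither there. In the 50 bases after the start, MAD2L1 and KIFC1 each hold a CHR, so both count among the members with one.
PLK1: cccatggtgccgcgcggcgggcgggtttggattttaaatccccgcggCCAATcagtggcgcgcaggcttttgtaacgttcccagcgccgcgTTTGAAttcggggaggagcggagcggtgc
CDC20: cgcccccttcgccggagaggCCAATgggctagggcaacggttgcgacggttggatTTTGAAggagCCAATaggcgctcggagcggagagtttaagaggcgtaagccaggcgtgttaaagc
CCNB2: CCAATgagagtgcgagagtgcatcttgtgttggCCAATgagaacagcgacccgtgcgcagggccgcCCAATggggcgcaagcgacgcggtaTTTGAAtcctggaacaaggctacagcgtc
KIF11: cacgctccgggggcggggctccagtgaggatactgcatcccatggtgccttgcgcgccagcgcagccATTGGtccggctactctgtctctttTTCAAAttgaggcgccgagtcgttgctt
MKI67: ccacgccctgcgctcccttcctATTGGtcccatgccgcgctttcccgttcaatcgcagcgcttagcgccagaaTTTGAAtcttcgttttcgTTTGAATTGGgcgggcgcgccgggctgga
KIFC1: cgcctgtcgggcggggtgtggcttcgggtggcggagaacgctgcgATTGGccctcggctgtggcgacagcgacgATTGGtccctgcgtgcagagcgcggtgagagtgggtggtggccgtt
KIF20A: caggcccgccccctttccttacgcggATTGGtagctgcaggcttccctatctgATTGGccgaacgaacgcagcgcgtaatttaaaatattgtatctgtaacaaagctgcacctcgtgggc
MAD2L1: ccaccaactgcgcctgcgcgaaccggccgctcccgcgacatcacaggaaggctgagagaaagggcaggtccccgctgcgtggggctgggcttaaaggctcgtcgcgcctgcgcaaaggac

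In PC3 the whole set was lower with MYCi975. All 48 members passed the test (limma on log2(CPM + 1), where CPM is counts per 1000000 counts of the library; Benjamini-Hochberg adjusted p below 0.05 over all genes of the table) in the lower direction and none in the higher, where 30.1% of all genes tested passed as lower and 29% as higher. The median log2 fold change was -0.89 over the members and -0.00 over all genes, and the members ranged from -1.65 (KIF20A) to -0.15 (CDC25B). The 3 MYCi975 libraries lay below the 3 DMSO libraries for all 48, as for 31.7% of all genes. These 48 calls held under every alternative run. No member was higher at an unadjusted p under 0.05, by edgeR's quasi-likelihood test or by DESeq2. Together the members took 3698 to 3827 CPM in the PC3 MYCi975 libraries, against 6976 to 7201 CPM in the PC3 DMSO libraries. In bulk RNA, fewer cells in mitosis and less of each message per cell cannot be told apart.

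The cyclin B1 message was among the most reduced of the CDK1 group. CCNB1, the cyclin that activates CDK1 at mitotic entry, had 101, 106 and 103 CPM in PC3 MYCi975 libraries, against 238, 229.7 and 238 CPM in PC3 DMSO libraries, a log2 fold change of -1.18 ± 0.038 (SE, n = 3 each; adjusted p = 4.13e-48). CDK1 itself, the kinase that drives mitosis, had 99.0, 104 and 106 CPM with MYCi975 and 171, 183 and 174 CPM with DMSO (-0.77 ± 0.040; adjusted p = 3.70e-32). The other cyclins were lower as well, with log2 fold changes of -0.92 for CCNA2, which acts from S phase to prophase, and -0.84 for CCNB2, the Golgi-associated B cyclin. The phosphatases that remove the inhibitory phosphates from CDK1 moved less. CDC25C was at -0.67 ± 0.095. CDC25B had 365, 361 and 391 CPM with MYCi975 and 398, 412 and 427 CPM with DMSO, the smallest difference of the 48 (-0.15 ± 0.032; adjusted p = 3.78e-05), although the groups did not overlap.

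Among the other mitotic kinases PLK1, which drives centrosome maturation, mitotic entry and cytokinesis, fell the most. It had 39.4, 39.2 and 41.6 CPM in PC3 MYCi975 libraries and 108, 107 and 108 CPM in PC3 DMSO libraries (-1.40 ± 0.050; adjusted p = 2.00e-44). AURKA, the Aurora kinase of the spindle poles, had 39.1, 38.3 and 36.7 CPM with MYCi975 and 70.4, 72.2 and 76.0 CPM with DMSO (-0.92 ± 0.055). AURKB, the Aurora kinase of the passenger complex, had 26.0, 28.5 and 25.7 CPM with MYCi975 and 54.9, 49.3 and 49.0 CPM with DMSO (-0.91 ± 0.064). NEK2, which separates the centrosomes, had the smallest change of the group, 28.7, 32.3 and 30.8 CPM with MYCi975 against 53.1, 51.2 and 51.8 CPM with DMSO (-0.75 ± 0.061), close to PLK4, the kinase of centriole duplication (-0.78 ± 0.081).

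The spindle checkpoint and the APC/C genes it acts on fell together. BUB1, the kinetochore kinase that recruits the checkpoint, had 64.5, 67.2 and 71.1 CPM with MYCi975 and 129, 139 and 137 CPM with DMSO (-0.99 ± 0.045). BUB1B, which encodes BUBR1 of the mitotic checkpoint complex, had 133, 144 and 133 CPM with MYCi975 and 233, 243 and 234 CPM with DMSO (-0.79 ± 0.037). MAD2L1, which encodes MAD2, the protein that binds and restrains CDC20, had 40.4, 42.0 and 42.7 CPM with MYCi975 and 80.9, 73.7 and 77.9 CPM with DMSO (-0.88 ± 0.053). In each of these the MYCi975 libraries stood well below the DMSO libraries. BUB3, which brings BUB1 and BUBR1 to kinetochores, differed the least, with 101, 103 and 105 CPM with MYCi975 and 136, 142 and 135 CPM with DMSO (-0.41 ± 0.041), and TTK, the kinase that starts checkpoint signalling, was at -0.71 ± 0.070. CDC20, the APC/C activator that the checkpoint holds, had 62.6, 61.3 and 67.2 CPM with MYCi975 and 139, 138 and 139 CPM with DMSO (-1.11 ± 0.045). UBE2C, the ubiquitin-conjugating enzyme of the APC/C, was at -0.68 ± 0.043, with 76.2, 77.6 and 81.6 CPM against 127, 124 and 127 CPM. PTTG1, the securin that the APC/C destroys to release sister chromatids, had 37.2, 34.7 and 36.4 CPM with MYCi975 and 67.8, 71.1 and 69.2 CPM with DMSO (-0.92 ± 0.056).

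The 11 kinesins spanned the widest range of any group in PC3. KIF20A, which carries the passenger complex to the central spindle, had 34.5, 34.2 and 34.3 CPM in MYCi975 libraries and 109, 112 and 109.5 CPM in DMSO libraries (-1.65 ± 0.051; adjusted p = 1.81e-49), a mean 68.8% below DMSO. KIFC1, the minus-end motor that clusters spindle poles, had 51.7, 49.3 and 52.5 CPM with MYCi975 and 124, 127 and 133 CPM with DMSO (-1.31 ± 0.047). KIF11, the motor that pushes the poles apart, had 41.0, 45.1 and 40.8 CPM with MYCi975 and 86.8, 96.1 and 93.6 CPM with DMSO (-1.11 ± 0.052). These motors of cytokinesis, pole clustering and pole separation led the group. KIF18A, which steadies chromosomes at the metaphase plate, changed the least, with 14.4, 17.4 and 14.9 CPM with MYCi975 and 27.1, 22.8 and 22.3 CPM with DMSO (-0.60 ± 0.085). The remaining kinesins lay between, from -0.66 for KIF14, a cytokinesis motor, to -0.99 for KIF2C, which takes microtubules apart at centromeres.

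At the centromere, CENPA, the histone variant that marks it, had 10.8, 10.3 and 13.4 CPM with MYCi975 and 19.7, 23.3 and 21.5 CPM with DMSO (-0.85 ± 0.092). CENPE, the kinetochore kinesin that moves chromosomes to the plate, fell the most of its group, with 25.4, 26.5 and 26.6 CPM against 54.3, 60.6 and 57.0 CPM (-1.10 ± 0.062). CENPF, a large protein of the outer kinetochore, had 145, 168 and 147 CPM with MYCi975 and 272, 308 and 298 CPM with DMSO (-0.93 ± 0.065; adjusted p = 1.11e-06). Of the NDC80 complex, which grips microtubules, NDC80 had 36.6, 42.4 and 40.2 CPM against 76.2, 69.2 and 72.6 CPM (-0.86 ± 0.056), and its partner NUF2 had 18.9, 19.7 and 19.2 CPM against 29.4, 33.0 and 32.8 CPM (-0.69 ± 0.074), the smallest difference of the 6. SPC25, from the inner end of the same complex, was at -0.84 ± 0.089.

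All passenger, spindle and cytokinesis genes were lower. BIRC5, which encodes the passenger subunit survivin, had 210.0, 219.5 and 215 CPM with MYCi975 and 478, 454 and 459 CPM with DMSO (-1.11 ± 0.032; adjusted p = 2.05e-51). INCENP, the scaffold of the complex, had 118, 114 and 122 CPM against 242, 246 and 238 CPM (-1.03 ± 0.037), and CDCA8, which encodes borealin, was at -1.08 ± 0.050. ANLN, the contractile ring scaffold anillin, had 148, 151 and 149 CPM with MYCi975 and 338, 362 and 352 CPM with DMSO (-1.23 ± 0.035). TPX2, which activates AURKA on the spindle, had 274, 272 and 282 CPM against 546, 566 and 576 CPM (-1.03 ± 0.031), and ECT2, which activates RhoA at the cleavage furrow, had 137, 147 and 138 CPM against 238, 239.6 and 246 CPM (-0.77 ± 0.037), the smallest of its group. The spindle factors PRC1, NUSAP1 and DLGAP5 were at -0.81, -0.91 and -1.14. TOP2A, which untangles sister chromatids, had 149.9, 159 and 152 CPM with MYCi975 and 341, 353 and 358 CPM with DMSO (-1.19 ± 0.035). MKI67, the Ki-67 protein that coats mitotic chromosomes, had 89.4, 104 and 87.7 CPM against 227, 276 and 239.9 CPM (-1.39 ± 0.11; adjusted p = 2.96e-04). FOXM1, a transcription factor that switches on many of these genes, changed less than most of them, with 133, 141 and 143 CPM with MYCi975 and 193, 199 and 187 CPM with DMSO (-0.47 ± 0.038).

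**Figure D1:**
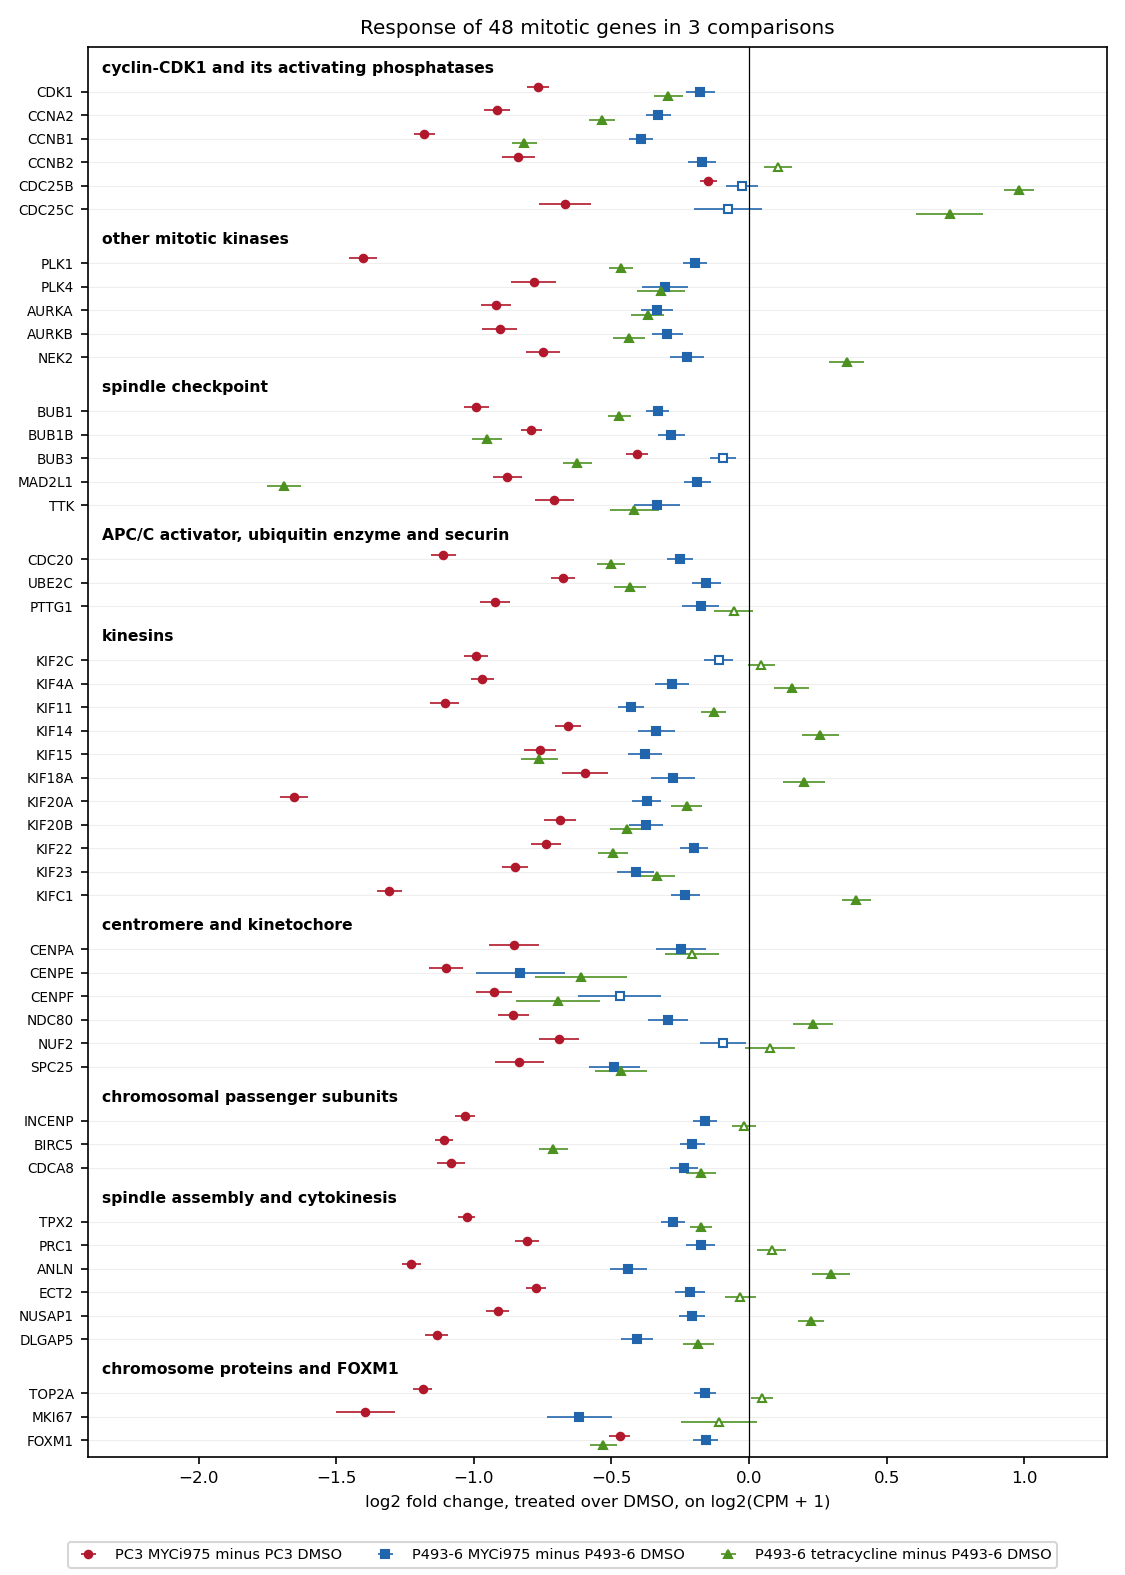
Log2 fold change (treated over DMSO, log2(CPM + 1) scale, points with SE, n = 3 each) of the 48 genes by role for PC3 MYCi975, P493-6 MYCi975 and P493-6 tetracycline, with open points where adjusted p was 0.05 or more. All 48 PC3 points lie below 0, the P493-6 MYCi975 points lie closer to 0 on the same side, and the tetracycline points spread to both sides, from -1.69 (MAD2L1) to 0.98 (CDC25B).

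In P493-6 with MYCi975 the same genes lay lower than in DMSO by a smaller amount. Of the 48, 42 passed the test as lower and none as higher, where 18% of all genes passed as lower and 10.6% as higher. All 48 fold changes were below 0, with a median of -0.26 against -0.04 over all genes. With TMM scaling, which sets the middle of all genes near 0, 37 members passed as lower and none as higher, and over all genes 1819 were higher and 1690 lower, against 1375 higher and 2338 lower without it. The libraries did not overlap, with MYCi975 below DMSO, for 43 members, as for 24.8% of all genes. At an unadjusted p under 0.05, 44 members were lower and none higher. With edgeR 38 were called lower and with DESeq2 31, and neither called any higher. Both also rescaled the libraries, edgeR by TMM. The members summed to 5161 to 5331 CPM in the MYCi975 libraries, against 6191 to 6697 CPM in the P493-6 DMSO libraries.

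The 6 members that did not pass came from 4 groups. CDC25B had 62.0, 61.9 and 63.2 CPM with MYCi975 and 63.6, 63.0 and 63.7 CPM with DMSO (-0.02 ± 0.058; adjusted p = 0.79). CDC25C had 9.32, 8.39 and 9.58 CPM against 10.7, 9.09 and 9.21 CPM (-0.08 ± 0.12; adjusted p = 0.689). Both phosphatases overlapped between the groups. BUB3 had 124, 116 and 120.4 CPM against 135, 126 and 125 CPM (-0.09 ± 0.049; adjusted p = 0.147), with all MYCi975 libraries just below the DMSO libraries. KIF2C had 113, 97.1 and 107 CPM against 113, 111 and 118 CPM (-0.11 ± 0.053; adjusted p = 0.118) and NUF2 23.5, 23.2 and 23.2 CPM against 24.2, 24.9 and 25.8 CPM (-0.10 ± 0.084; adjusted p = 0.43). KIF2C passed without P493-6 MYCi975 replicate 1 (-0.16, adjusted p = 0.0413). CENPF was the sixth (-0.47 ± 0.15), with all MYCi975 libraries below the DMSO libraries, and it passed with DESeq2 (-0.43, adjusted p = 0.0194).

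Among the 42 that passed, CCNB1 had 187, 188 and 185 CPM with MYCi975 and 247, 252 and 238 CPM with DMSO (-0.39 ± 0.043; adjusted p = 6.50e-10). KIF11 had 129, 123 and 127 CPM against 173, 166 and 173 CPM (-0.43 ± 0.046), and ANLN 36.5, 38.3 and 39.4 CPM against 54.9, 52.3 and 48.8 CPM (-0.44 ± 0.068). Cyclin B1, the pole-separating motor and anillin were thus reduced in both lines without overlap of the groups. KIF20A had 74.9, 75.5 and 73.7 CPM with MYCi975 and 102, 96.0 and 93.5 CPM with DMSO (-0.37 ± 0.053; adjusted p = 3.48e-07). AURKA was at -0.34 ± 0.058, AURKB at -0.30 ± 0.055 and BUB1B at -0.28 ± 0.050. SPC25 had 15.5, 18.9 and 16.8 CPM against 23.7, 25.1 and 23.9 CPM (-0.49 ± 0.093). These genes held their calls in every alternative run. PLK1 and TOP2A, among the most reduced in PC3, had smaller values here. PLK1 had 221, 219 and 209 CPM with MYCi975 and 239, 256 and 249 CPM with DMSO (-0.20 ± 0.043; adjusted p = 3.67e-04), and TOP2A 524, 522 and 535 CPM against 615, 596 and 559 CPM (-0.16 ± 0.040; adjusted p = 0.00147). Others rested on single libraries or on the scaling. With TMM scaling CDK1, PTTG1, UBE2C, FOXM1 and CENPA did not pass. CDK1 (-0.18 ± 0.052; adjusted p = 0.00775) was at -0.13, adjusted p = 0.0507 with TMM scaling and at -0.13, adjusted p = 0.143 with DESeq2, and did not pass without P493-6 MYCi975 replicate 3 (-0.13, adjusted p = 0.0652). PLK4 (-0.30) did not pass without P493-6 MYCi975 replicate 2 (-0.22, adjusted p = 0.0511). PTTG1, at 52.9, 47.1 and 48.8 CPM with MYCi975 and 62.6, 51.8 and 54.3 CPM with DMSO (-0.18 ± 0.067; adjusted p = 0.0454), overlapped between the groups. It lost its call with TMM scaling (-0.13, adjusted p = 0.142), edgeR (-0.13, adjusted p = 0.151) and DESeq2 (-0.13, adjusted p = 0.302), and without any one of DMSO replicate 1 (-0.10, adjusted p = 0.351), DMSO replicate 3 (-0.20, adjusted p = 0.0587), MYCi975 replicate 2 (-0.14, adjusted p = 0.186) or MYCi975 replicate 3 (-0.16, adjusted p = 0.101).

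The 3 members with the longest transcripts stood apart in P493-6. CENPE, CENPF and MKI67 have transcripts of 8612, 10307 and 12678 bases (longest in GENCODE v29). CENPE had 37.7, 40.2 and 43.0 CPM in MYCi975 libraries 1 to 3, 41.4, 49.1 and 51.2 CPM in tetracycline libraries and 91.1, 70.1 and 59.4 CPM in DMSO libraries. CENPF had 247, 269.9 and 314 CPM with MYCi975, 204, 247 and 260.1 CPM with tetracycline and 448, 364 and 342 CPM with DMSO. MKI67 had 339, 378 and 438 CPM with MYCi975, 459, 573 and 614 CPM with tetracycline and 639, 585 and 543 CPM with DMSO. For all 3 genes DMSO library 1 was the highest of its group and MYCi975 library 1 and tetracycline library 1 the lowest of theirs. The MYCi975 fold changes were -0.83 ± 0.16 for CENPE (adjusted p = 0.0137), -0.47 ± 0.15 for CENPF (adjusted p = 0.0944) and -0.62 ± 0.12 for MKI67 (adjusted p = 0.0197), with SEs above those of most members. CENPE did not pass without MYCi975 replicate 1 (-0.79, adjusted p = 0.0563) or 2 (-0.83, adjusted p = 0.0677). MKI67 did not pass without DMSO replicate 1 (-0.56, adjusted p = 0.0505), DMSO replicate 2 (-0.62, adjusted p = 0.0587) or MYCi975 replicate 2 (-0.61, adjusted p = 0.0559). A set of 917 genes had transcripts of 8000 bases or more and a mean of at least 5 CPM over the P493-6 libraries. Their median deviation from the mean of those libraries was -0.07, -0.05 and 0.00 (log2) in the MYCi975 libraries. In the DMSO libraries it was 0.00, -0.05 and -0.06, and the median fold change of the 917 genes with MYCi975 was -0.01. The part of transcript length in these 3 results was not tested.

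**Figure D2:**
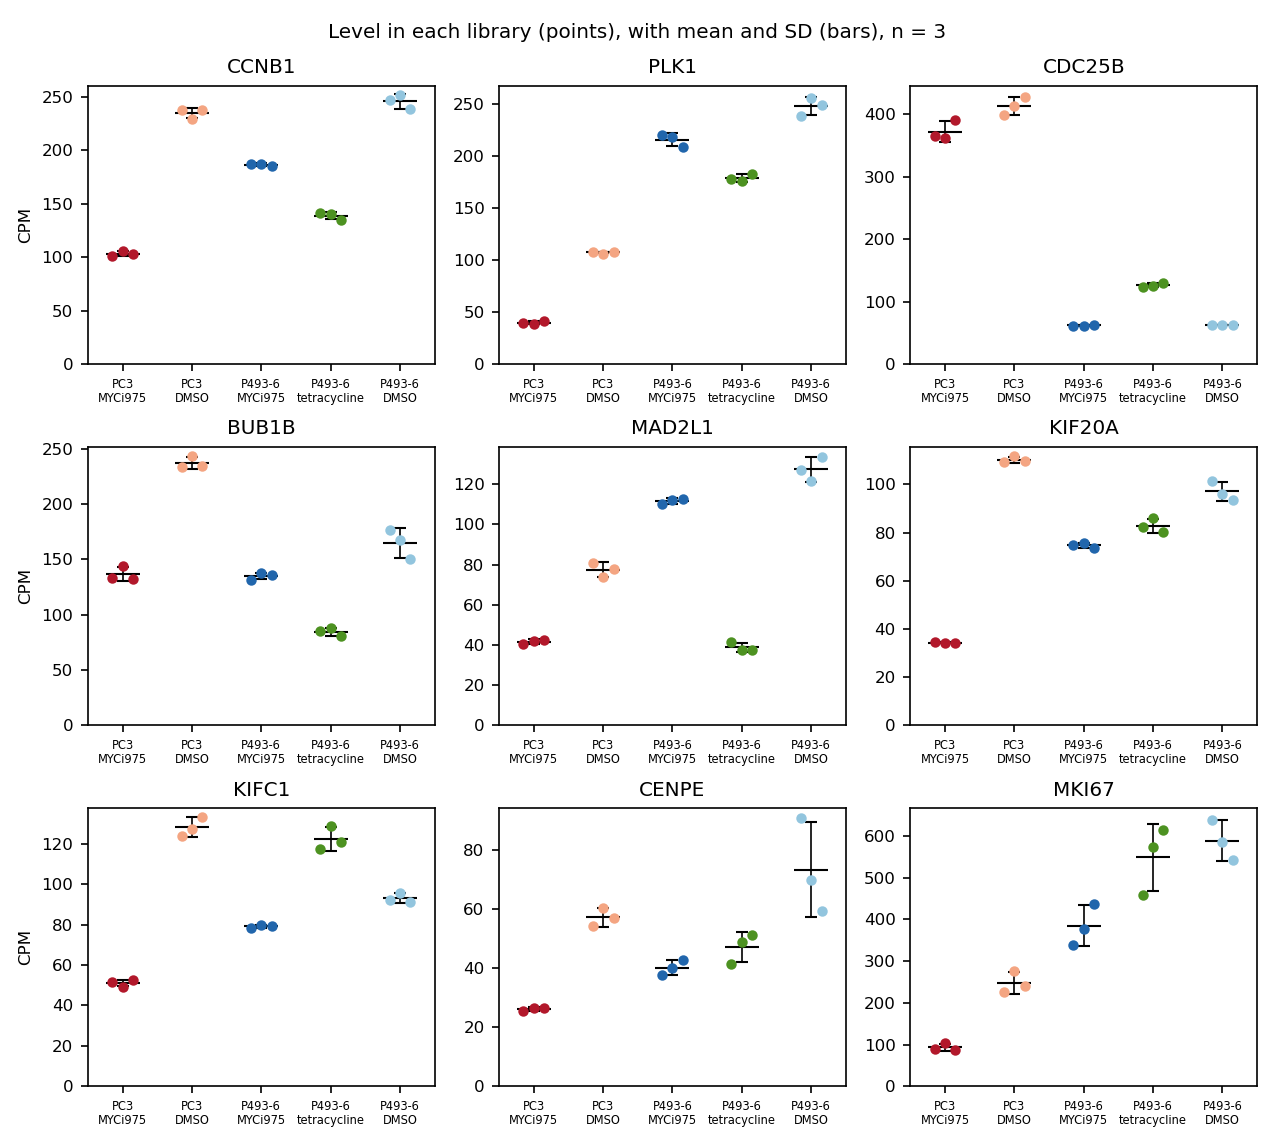
CPM in each library (points; black bars, mean and SD, n = 3) for 9 members in PC3 MYCi975, PC3 DMSO, P493-6 MYCi975, P493-6 tetracycline and P493-6 DMSO. CCNB1 and KIF20A are lower with MYCi975 in both lines, MAD2L1 is lowest with tetracycline among the P493-6 groups, CDC25B and KIFC1 lie above DMSO with tetracycline, and CENPE and MKI67 scatter more between P493-6 libraries.

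The response to MYCi975 was larger in PC3 than in P493-6 for nearly the whole set, at 8 µM in PC3 and 6 µM in P493-6. The difference between the lines, the PC3 fold change minus the P493-6 fold change, was below 0 with an adjusted p under 0.05 for 45 of 48 members and above 0 for none, where 18.2% of the 11240 genes shared by both tables passed as lower and 18.1% as higher. Its median was -0.60 over the members and 0.01 over all genes. At an unadjusted p under 0.05, 47 were lower and none higher. The edgeR test called 47 lower and DESeq2 45, and neither called any higher. The differences were greatest for KIF20A (-1.28 ± 0.070; adjusted p = 6.61e-18), PLK1 (-1.21 ± 0.062; adjusted p = 8.31e-19), KIFC1 (-1.07 ± 0.069; adjusted p = 5.49e-16) and TOP2A (-1.03 ± 0.052; adjusted p = 5.26e-19). A motor of cytokinesis, a mitotic kinase, a pole-clustering motor and the chromatid-untangling enzyme thus led. The 3 that did not pass were CDC25B (-0.12 ± 0.058; adjusted p = 0.0934), CENPE (-0.27 ± 0.16; adjusted p = 0.236) and CENPF (-0.46 ± 0.18; adjusted p = 0.0772). Without P493-6 DMSO replicate 1, CENPE passed (-0.43, adjusted p = 6.83e-04), as did CENPF (-0.57, adjusted p = 0.0222); without PC3 MYCi975 replicate 3, CDC25B passed (-0.16, adjusted p = 0.0396). CDC25B (-0.15, adjusted p = 0.0348) and CENPF (-0.49, adjusted p = 0.0446) also passed with TMM scaling. KIF18A (-0.32 ± 0.13; adjusted p = 0.0458) and SPC25 (-0.35 ± 0.13; adjusted p = 0.0399) passed narrowly. KIF18A lost its call, at -0.30 to -0.23, without any one of PC3 MYCi975 replicates 1 and 3, PC3 DMSO replicate 1, P493-6 MYCi975 replicates 1 and 2 and P493-6 DMSO replicates 2 and 3. SPC25 lost its call without any one of PC3 MYCi975 replicate 2 and PC3 DMSO replicates 1 and 3. The same held without P493-6 MYCi975 replicate 2 or P493-6 DMSO replicate 1 or 3, at -0.34 to -0.25 in all. With DESeq2 SPC25 did not pass either (-0.38, adjusted p = 0.055). KIF18A also did not pass with a pseudocount of 5 CPM (-0.25, adjusted p = 0.0604) or with the library number as a replicate block (-0.32, adjusted p = 0.059). Across the 48 genes the PC3 and P493-6 fold changes had a Pearson r of 0.427 and a Spearman rho of 0.360, a description over genes from the same libraries.

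**Figure D3:**
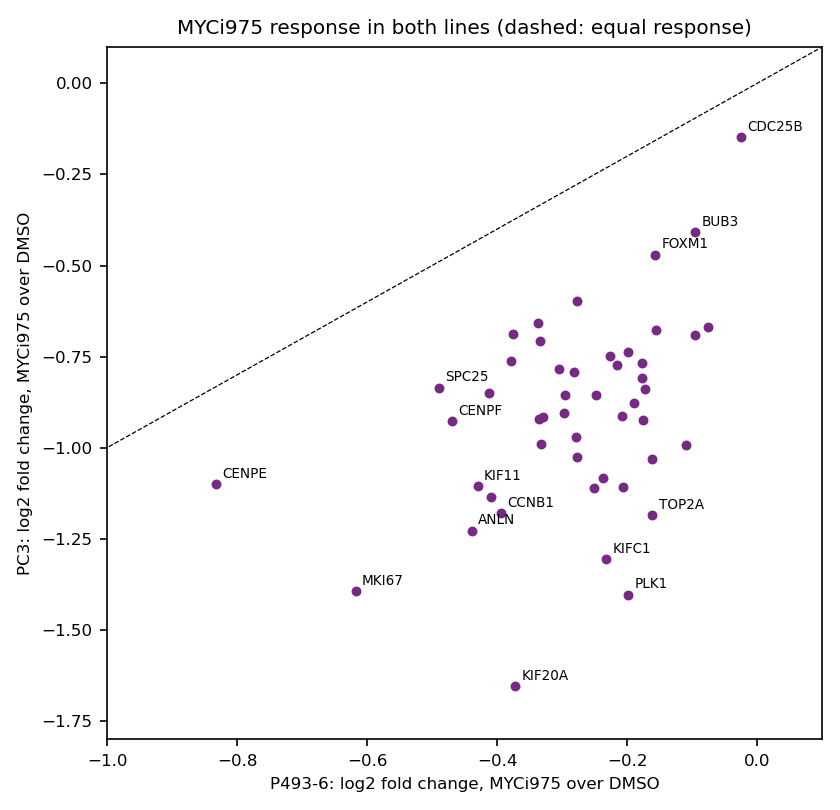
Log2 fold change with MYCi975 over DMSO in PC3 (vertical axis) against that in P493-6 (horizontal axis), 1 point per gene for the 48 genes, with the dashed line marking an equal response. Every point lies below the dashed line, CDC25B nearest to 0 on both axes and KIF20A lowest at -1.65 in PC3 and -0.37 in P493-6.

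Turning the introduced MYC gene off with tetracycline split the set, as it split all genes. Of the 48 members, 28 (58.3%) passed as lower and 10 (20.8%) as higher, where 41.9% of all genes passed as lower and 36.2% as higher. The members were thus divided less evenly than all genes, with a smaller share that rose. The median fold change was -0.22 over the members and -0.05 over all genes. The members summed to 5353 to 5520 CPM with tetracycline, against 6191 to 6697 CPM with DMSO. With TMM scaling 25 members were lower and 14 higher: CCNB2, PRC1, TOP2A and KIF2C then passed as higher, and KIF11, CDCA8 and DLGAP5 did not pass. Over all genes TMM scaling gave 5367 lower and 5382 higher, against 5745 lower and 4957 higher without it. The fold change with tetracycline also varied with transcript length. This was read over genes listed for both P493-6 treatments with a mean of at least 5 CPM. Their median fold change was -0.31 for transcripts under 2000 bases and 0.15 for those of 8000 bases or more. Over the 8 members under 2000 bases the median was -0.36, with 5 lower and none higher, over the 25 of 2000 to 4000 bases -0.18, with 15 lower and 7 higher, and over the 12 of 4000 to 8000 bases -0.08, with 6 lower and 3 higher. Over the 3 of 8000 bases or more (CENPE, CENPF and MKI67) the median was -0.61, with 2 lower and none higher. The sign of this median was opposite to that over the genes of that length with a mean of at least 5 CPM. The part of length in the split was not tested.

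All 5 checkpoint genes fell with tetracycline. MAD2L1 had 41.4, 37.4 and 37.6 CPM with tetracycline and 127, 121 and 134 CPM with DMSO (-1.69 ± 0.062; adjusted p = 1.39e-25), a mean 69.5% below DMSO. BUB1B had 85.3, 87.7 and 80.6 CPM with tetracycline and 176, 168 and 150.3 CPM with DMSO (-0.95 ± 0.055; adjusted p = 8.71e-19). BUB3, which did not pass with MYCi975, had 83.8, 80.7 and 84.3 CPM with tetracycline and 135, 126 and 125 CPM with DMSO (-0.62 ± 0.053). None of these overlapped with DMSO, and BUB1 (-0.47) and TTK (-0.42) were lower too. Of the genes next in line, CDC20 had 87.0, 90.7 and 83.2 CPM against 124, 123 and 123 CPM (-0.50 ± 0.053), UBE2C was at -0.43 ± 0.057, and the securin PTTG1 had 54.3, 57.1 and 50.4 CPM against 62.6, 51.8 and 54.3 CPM (-0.06 ± 0.071; adjusted p = 0.471), overlapping with DMSO.

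Within the CDK1 group CDK1, CCNA2 and CCNB1 fell and both CDC25 phosphatases rose. CCNB1 had 142, 140.3 and 135 CPM with tetracycline and 247, 252 and 238 CPM with DMSO (-0.82 ± 0.045; adjusted p = 1.22e-19), CCNA2 was at -0.54 ± 0.047 and CDK1 at -0.29 ± 0.054. CDC25B had 124, 125 and 129.7 CPM with tetracycline and 63.6, 63.0 and 63.7 CPM with DMSO (0.98 ± 0.054; adjusted p = 1.67e-19), and CDC25C 19.3, 14.1 and 16.9 CPM against 10.7, 9.09 and 9.21 CPM (0.73 ± 0.12; adjusted p = 1.24e-06). The groups did not overlap for either, and these were the largest increases of the 48. CCNB2 had 112, 111 and 114 CPM with tetracycline and 108, 103 and 102 CPM with DMSO (0.10 ± 0.051; adjusted p = 0.0603) and passed as higher without DMSO replicate 1 (0.13, adjusted p = 0.0358). It also passed as higher with TMM scaling (0.18, adjusted p = 0.00105), edgeR (0.19, adjusted p = 6.22e-04) and DESeq2 (0.19, adjusted p = 0.00438). Of the other kinases, PLK1, PLK4, AURKA and AURKB fell, with log2 fold changes from -0.47 (PLK1) to -0.32 (PLK4), and NEK2 rose, with 81.7, 76.8 and 73.0 CPM against 63.5, 61.2 and 55.7 CPM (0.36 ± 0.063; adjusted p = 3.89e-06).

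The kinesins divided, 6 lower and 4 higher, or 5 and 5 with TMM scaling. These were 54.5% and 36.4% of the 11, where 41.9% of all genes were lower and 36.2% higher, so the share that rose was close to that over all genes. KIFC1 had 117, 129 and 121 CPM with tetracycline and 92.1, 95.8 and 91.4 CPM with DMSO (0.39 ± 0.053; adjusted p = 1.85e-08). KIF14 had 75.9, 82.1 and 83.4 CPM against 76.3, 66.0 and 59.8 CPM (0.26 ± 0.068), and 1 DMSO library overlapped with the tetracycline range. The pole-clustering motor was above DMSO without overlap. KIF18A, at 42.7, 39.2 and 45.8 CPM against 39.3, 35.5 and 35.8 CPM (0.20), did not pass without tetracycline replicate 3 (0.15, adjusted p = 0.114), DMSO replicate 2 (0.18, adjusted p = 0.0701) or DMSO replicate 3 (0.18, adjusted p = 0.0564). KIF4A, the motor that sets the length of the central spindle, at 66.7, 70.9 and 61.9 CPM against 61.9, 57.6 and 59.2 CPM (0.15), did not pass without tetracycline replicate 1 (0.15, adjusted p = 0.0538), tetracycline replicate 2 (0.11, adjusted p = 0.161), DMSO replicate 2 (0.13, adjusted p = 0.109) or DMSO replicate 3 (0.15, adjusted p = 0.0591). On the lower side KIF15, which keeps the spindle bipolar alongside KIF11, was at -0.76 ± 0.067, KIF22, a motor on chromosome arms, at -0.50 ± 0.055 and KIF20B, a cytokinesis motor, at -0.44 ± 0.061. KIF20A had 82.3, 85.9 and 80.1 CPM with tetracycline and 102, 96.0 and 93.5 CPM with DMSO (-0.23 ± 0.056), and KIF11 152, 161 and 154 CPM against 173, 166 and 173 CPM (-0.13 ± 0.046; adjusted p = 0.0109). KIF11 lost its call with TMM scaling (-0.05, adjusted p = 0.314), edgeR (-0.05, adjusted p = 0.308) and DESeq2 (-0.05, adjusted p = 0.418). KIF2C, at 116, 119 and 118 CPM against 113, 111 and 118 CPM (0.04 ± 0.050), did not pass. It passed as higher with TMM scaling (0.12, adjusted p = 0.0233) and edgeR (0.13, adjusted p = 0.0182).

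Among kinetochore genes NDC80 rose, with 50.6, 52.9 and 47.8 CPM with tetracycline and 39.5, 47.7 and 41.5 CPM with DMSO (0.23 ± 0.074; adjusted p = 0.00456), and its complex partner SPC25 fell, with 17.7, 17.9 and 16.3 CPM against 23.7, 25.1 and 23.9 CPM (-0.47 ± 0.095; adjusted p = 2.97e-05). NUF2, at 30.1, 24.4 and 25.1 CPM against 24.2, 24.9 and 25.8 CPM (0.08), and CENPA, at 17.4, 20.7 and 22.8 CPM against 24.9, 22.5 and 23.1 CPM (-0.21; adjusted p = 0.0532), overlapped with DMSO and did not pass, CENPA passing without tetracycline replicate 3 (-0.29, adjusted p = 0.0144). Members of 1 complex thus differed in direction. CENPE (-0.61 ± 0.17; adjusted p = 0.0155) and CENPF (-0.69 ± 0.15; adjusted p = 0.012) were lower, CENPE not passing without tetracycline replicate 2 (-0.64, adjusted p = 0.0744). BIRC5 was the passenger subunit that fell most, with 98.1, 93.5 and 86.1 CPM with tetracycline and 149, 153 and 154 CPM with DMSO (-0.71 ± 0.052; adjusted p = 1.45e-15), while INCENP had 227, 239 and 227 CPM against 237, 239 and 226 CPM (-0.02 ± 0.043) and overlapped with DMSO.

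Of the spindle and cytokinesis genes ANLN and NUSAP1 rose and TPX2 and DLGAP5 fell. ANLN had 70.8, 58.3 and 63.7 CPM with tetracycline and 54.9, 52.3 and 48.8 CPM with DMSO (0.30 ± 0.069; adjusted p = 2.00e-04). NUSAP1, a microtubule-bundling protein, had 190.1, 188 and 194 CPM against 174, 160.2 and 155 CPM (0.23 ± 0.047; adjusted p = 4.23e-05). Both lay above every DMSO library. TPX2 was at -0.18 ± 0.041. DLGAP5 (-0.18) did not pass with TMM scaling (-0.11, adjusted p = 0.0784), edgeR (-0.11, adjusted p = 0.0768) or DESeq2 (-0.11, adjusted p = 0.162). PRC1, which bundles the central spindle, had 123, 121 and 128 CPM against 126, 115 and 111 CPM (0.08; adjusted p = 0.153) and ECT2 79.3, 77.7 and 76.4 CPM against 80.2, 79.6 and 79.1 CPM (-0.03). PRC1 and ECT2 did not pass, PRC1 passing as higher without DMSO replicate 1 (0.14, adjusted p = 0.0242). PRC1 also passed as higher with TMM scaling (0.16, adjusted p = 0.00416), edgeR (0.16, adjusted p = 0.00251) and DESeq2 (0.16, adjusted p = 0.0151). TOP2A had 619, 611 and 596 CPM with tetracycline and 615, 596 and 559 CPM with DMSO (0.05 ± 0.039; adjusted p = 0.272) and MKI67 was at -0.11 ± 0.14 (adjusted p = 0.506). These widely used markers of dividing cells overlapped with DMSO. TOP2A passed as higher with TMM scaling (0.13, adjusted p = 0.00349), edgeR (0.13, adjusted p = 0.00385) and DESeq2 (0.13, adjusted p = 0.00537). FOXM1 fell, with 102, 103 and 109 CPM with tetracycline and 152, 152 and 150.3 CPM with DMSO (-0.53 ± 0.049; adjusted p = 1.28e-12).

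Set directly against tetracycline in P493-6, MYCi975 left 21 members lower and 15 higher, where 33.9% of all 12860 shared genes passed as lower and 42.3% as higher. The median difference was -0.09 over the members and 0.08 over all genes, and with TMM scaling 26 members were lower and 12 higher. TMM scaling also turned the balance over all genes, to 4929 lower and 4884 higher, against 4356 lower and 5438 higher without it. The checkpoint lay on the higher side: 4 of 5 genes passed, 3 of 5 with TMM scaling, and none was lower. MAD2L1 differed most (1.502 ± 0.057; adjusted p = 6.89e-29), followed by BUB1B (0.67 ± 0.053; adjusted p = 2.96e-16) and BUB3 (0.53 ± 0.051; adjusted p = 3.39e-13). CCNB1 (0.42 ± 0.044) and BIRC5 (0.51 ± 0.051) were likewise higher with MYCi975. All 6 spindle assembly and cytokinesis genes were lower with MYCi975 than with tetracycline, under TMM scaling too, from -0.74 for ANLN to -0.10 for TPX2. TPX2 (adjusted p = 0.0258) did not pass without MYCi975 replicate 1 (-0.09, adjusted p = 0.0749), MYCi975 replicate 2 (-0.08, adjusted p = 0.128) or tetracycline replicate 3 (-0.10, adjusted p = 0.0559). CDC25B (-1.005 ± 0.055; adjusted p = 2.46e-22), CDC25C (-0.80 ± 0.12) and KIFC1 (-0.62 ± 0.053) were also lower. CDK1 was at the threshold (0.12 ± 0.054; adjusted p = 0.0497), with values of 96.1, 102 and 90.3 CPM with MYCi975 and 84.2, 90.4 and 91.4 CPM with tetracycline that overlapped, and it was at 0.01, adjusted p = 0.827 with TMM scaling.

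**Figure D4:**
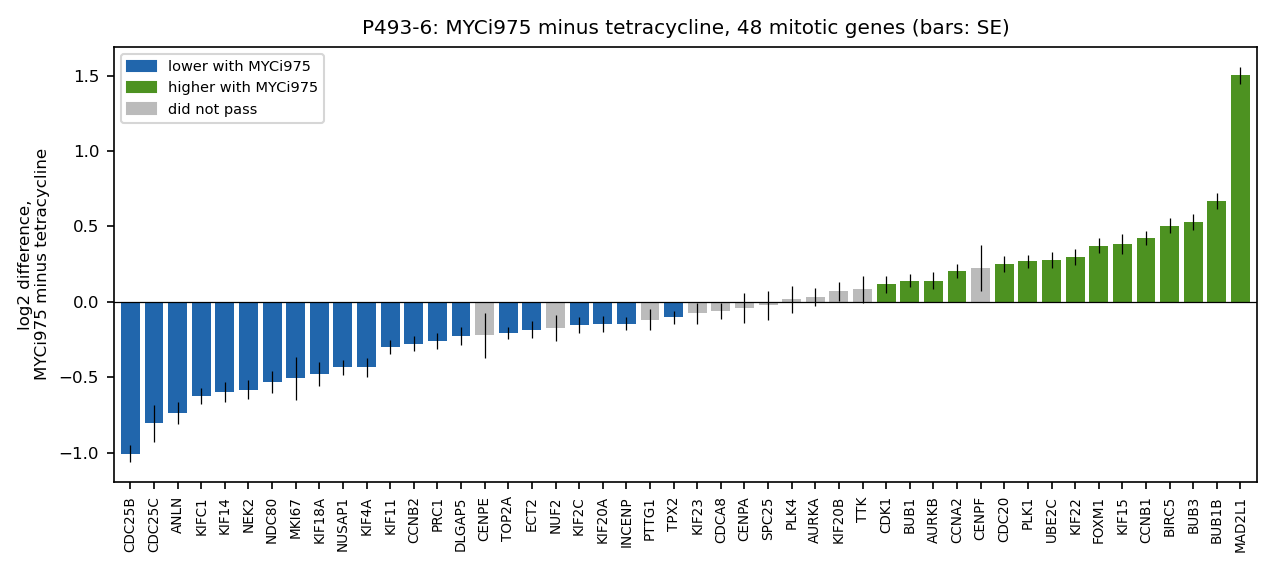
Log2 difference between P493-6 MYCi975 and P493-6 tetracycline (bars, SE as lines, n = 3 each) for the 48 genes in order of size, coloured by the test. The order runs from -1.005 (CDC25B) to 1.502 (MAD2L1), with ANLN, KIFC1 and NEK2 on the lower side and BUB1B, BUB3 and BIRC5 on the higher side.

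By promoter motif, the 33 members with a CHR had median fold changes of -0.85 in PC3, -0.25 in P493-6 with MYCi975 and -0.13 with tetracycline, against -0.96, -0.31 and -0.33 for the 8 matched members without one. For the 34 with a CCAAT box the medians in the same order were -0.91, -0.25 and -0.18, against -0.86, -0.30 and 0.04 for the 7 without. With tetracycline the members with a CHR thus had the median nearer to 0, and those with a CCAAT box the median further below 0. The 10 members with an E2F site had medians of -0.77, -0.23 and -0.12, against -0.97, -0.28 and -0.17 for the 31 without. The 5 members with an E-box were CCNB1, PLK1, ANLN, CENPE and CENPF. They had medians of -1.18, -0.44 and -0.61, against -0.86, -0.25 and -0.12 for the 36 without. With tetracycline 4 of the 5 were lower and ANLN was higher (0.30). The CENPE and CENPF calls there did not hold under every alternative. MAD2L1, KIFC1 and CDC20, whose sequences are given above, were at -1.69, 0.39 and -0.50 with tetracycline and at -0.88, -1.31 and -1.11 in PC3. These are descriptions over few genes.

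Neighbouring parts of the mitotic machinery were read through other lists of genes, chosen beside the members. The counts of each list stand against the shares of all genes that passed, 30.1% lower and 29% higher in PC3, 18% lower and 10.6% higher in P493-6 with MYCi975, and 41.9% lower and 36.2% higher with tetracycline. Among 28 other spindle and cytokinesis genes in PC3, 27 fell and 1 rose, with a median of -0.88. FAM83D, which recruits a kinase to the spindle, was at -1.34, GTSE1, a microtubule stabiliser, at -1.16 and FBXO5, an APC/C inhibitor, at -1.11, whereas KIF2A, a microtubule depolymerase, was at 0.20. In P493-6, 18 of the 28 fell and none rose with MYCi975 (median -0.23), led by HMMR, a spindle-pole protein (-0.47). With tetracycline 14 fell and 4 rose, or 12 and 9 with TMM scaling (median -0.11), led by UBE2S, the chain-extending enzyme of the APC/C (-1.18). Of 35 other centromere, kinetochore and checkpoint genes, 30 fell and none rose in PC3 (median -0.48), 18 fell and none rose in P493-6 with MYCi975 (-0.21), and 21 fell and 5 rose with tetracycline (-0.29). HJURP, the chaperone that loads CENPA, was at -1.11 in PC3. ZWINT, a partner of KNL1, was at -0.55 in P493-6 with MYCi975. TRIP13, the enzyme that recycles MAD2, was at -2.27 with tetracycline, on the same side as MAD2L1.

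The core of the APC/C and the chromosome rings had medians nearer to 0 than the 48 members with MYCi975 in both lines, and further below 0 with tetracycline. Of 14 APC/C core subunits, 9 fell and 1 rose in PC3 (median -0.25), 4 fell and 2 rose in P493-6 with MYCi975 (-0.12; 3 and 3 with TMM scaling), and 11 fell and 2 rose with tetracycline (-0.61), where ANAPC1 was at -1.51 and ANAPC5 at -1.28. Of 19 cohesin and condensin genes, 15 fell and 2 rose in PC3 (-0.44), 12 fell and none rose in P493-6 with MYCi975 (-0.18), and 11 fell and 4 rose with tetracycline (-0.34). The condensin subunits NCAPG (-1.28) and NCAPD2 (-1.03) led in PC3, where the cohesin regulators PDS5A (0.23) and NIPBL (0.13) rose, and the condensin subunits SMC2 (-0.38) and NCAPG (-0.33) were lower in P493-6 with MYCi975. Of 16 other mitotic kinases and CDK1 regulators, 12 fell and 2 rose in PC3 (-0.56), 7 fell and 1 rose in P493-6 with MYCi975 (-0.10), and 9 fell and 3 rose with tetracycline (-0.14). CKS2, a CDK1 cofactor, was at -0.31 with MYCi975 and -1.29 with tetracycline in P493-6.

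A pair of lists with other duties had medians above 0 in PC3. Of 19 other kinesins, most of which carry cargo outside mitosis, 10 rose and 2 fell in PC3 (median 0.23), with KIF13B at 0.67 and KIFC3 at 0.58. Of 17 such kinesins in P493-6 with MYCi975, 3 fell and 1 rose (-0.06), and of 18 with tetracycline, 6 fell and 9 rose (0.26). Of 16 CDK inhibitors and G2 brakes, 9 rose and 3 fell in PC3 (0.50), led by CDKN1A, which encodes p21 (1.71), and CDKN2B, which encodes p15 (1.62), with CDKN2C, which encodes p18, at -1.61. In P493-6 with MYCi975, 3 of 15 rose and none fell (0.05), or 6 and none with TMM scaling, with GADD45A, a G2 brake, at 0.40. With tetracycline 11 of 15 rose and 2 fell (0.74), led by BTG2, an antiproliferative gene (2.72), and the cyclin G2 gene CCNG2 (2.31). Of 16 genes listed as DREAM, MuvB and NF-Y factors, 9 fell and 2 rose in PC3 (-0.16), 5 fell and none rose in P493-6 with MYCi975 (-0.13), and 9 fell and 4 rose with tetracycline (-0.34). TFDP1, the partner of E2F proteins, was at -0.92 in PC3 and at -0.16 with MYCi975 and -1.70 with tetracycline in P493-6. MYBL2, which encodes B-MYB, was at -0.56 in PC3 and -1.30 with tetracycline. Of 17 mitotic exit phosphatase genes, 9 fell and 3 rose in PC3 (-0.21), 4 fell and 1 rose in P493-6 with MYCi975 (-0.09; 2 and 3 with TMM scaling), and 10 fell and 6 rose with tetracycline (-0.23). Several of these counts lay near the shares over all genes: 17.6% of the other kinesins were lower in P493-6 with MYCi975 (18% of all genes), and 35.3% of the phosphatase genes were higher with tetracycline (36.2% of all genes).

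**Figure D5:**
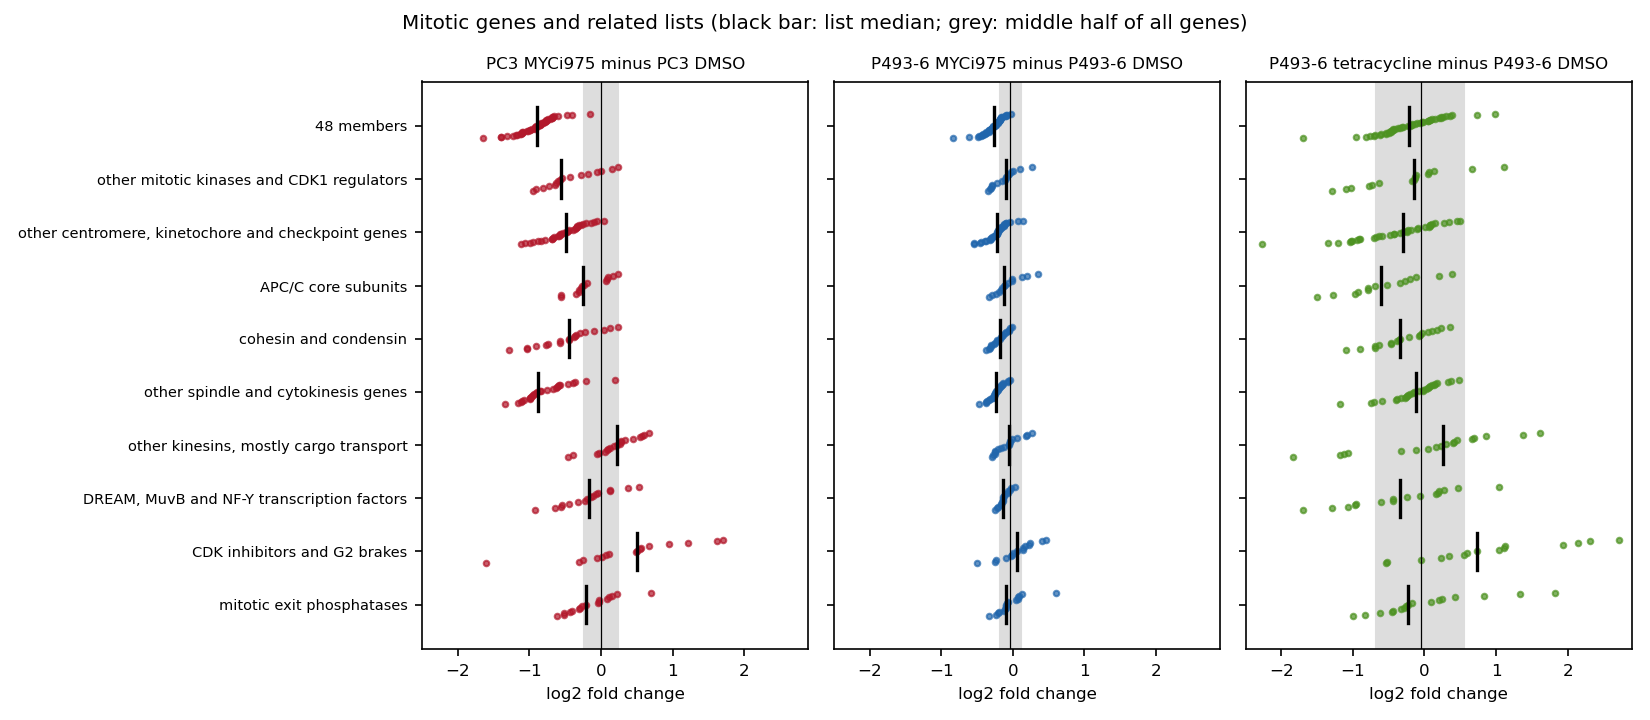
Log2 fold change of each gene (points) in the 48-gene set and in 9 related lists, with the list median (black bar) and the middle range of all genes from the lower to the upper quartile (grey), for PC3 MYCi975, P493-6 MYCi975 and P493-6 tetracycline. In PC3 the medians of the set (-0.89) and of the other spindle and cytokinesis genes (-0.88) lie furthest left of the grey band. Those of the other mitotic kinases (-0.56), other centromere genes (-0.48), cohesin and condensin (-0.44) and APC/C core (-0.25) also lie left of it. The median of the CDK inhibitors (0.50) lies to the right. Single genes lie elsewhere, such as CDC25B (-0.15) and KIF2A (0.20) inside the band and CDKN2C (-1.61) to its left.

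Library totals, recovered from the CPM values, ran from 8162582 to 15926008 counts, so 1 CPM stood for about 8.16 to 15.9 counts and the members, at 8.39 CPM or more in every library, were all well counted. MYC, the gene that tetracycline turns off, was at 145 to 152 CPM with tetracycline and 4692 to 4791 CPM with DMSO in P493-6, as labelled, and with MYCi975, which acts on the protein, at 5084 to 5138 CPM in P493-6 and 359 to 386 CPM in PC3, against 300.4 to 309 CPM in PC3 DMSO libraries. The lines carried their own markers: 5 epithelial markers summed to 1143 to 1232 CPM in PC3 MYCi975 and 1408 to 1444 CPM in PC3 DMSO libraries, mostly from the keratins, with EPCAM and CDH1 low, and 1 of the 7 B cell markers, CD74, was listed in PC3 (1.25 to 2.05 CPM with MYCi975 and 1.75 to 4.27 CPM with DMSO). All 7 B cell markers were listed in P493-6, at 4408 to 4723 CPM with MYCi975, 11501 to 11895 CPM with tetracycline and 3898 to 4124 CPM with DMSO. Of the epithelial markers, 1 was listed in the P493-6 MYCi975 table and 2 in the tetracycline table, at no more than 14.3 CPM in sum. EPCAM was in both, at 13.3 to 14.3 CPM with MYCi975, 10.7 to 11.9 CPM with DMSO and 0.808 to 2.64 CPM with tetracycline. In PC3 it had 16.8 to 17.6 CPM with MYCi975 and 13.5 to 15.9 CPM with DMSO. Outside the tetracycline libraries EPCAM was thus at similar levels in the lines and did not mark PC3. The B cell markers rose in sum with tetracycline beside the split of the mitotic genes, and their part in it was not tested. In the authors' deposited tables, at an adjusted p under 0.01, 48 members were marked lower in PC3, 31 in P493-6 with MYCi975 and 23 with tetracycline, and 0, 0 and 13 were marked higher, against 25.3%, 9.51% and 36.7% of all genes marked lower and 25.1%, 10.6% and 36.4% marked higher.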

How the data were processed

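RNA-seq libraries were made from 50 ng of RNA by exon capture with a stranded kit, per the labels' protocols. Alignment with STAR, counting with HTSeq, edgeR and the hg38 build are named in the submitters' processing notes, without versions. The authors deposited CPM (counts per 1000000 counts) in 3 tables of 6 libraries, filtered to genes above 1 CPM in at least 2 libraries, as tested on the files. CPM values were whole multiples of 1 read (100% within 0.003), so whole reads were recovered for count tests. The main test was limma 3.58.1 (R 4.3.3; trended, robust) on log2(CPM + 1), two-sided, within each table, with Benjamini-Hochberg adjustment over all its genes; fold changes are on that scale, which understates changes of low genes. MYCi975 minus tetracycline used 12860 genes shared by the P493-6 tables, and the difference between lines 11240. The shared DMSO columns were identical, so the P493-6 comparisons are not independent. Alternatives were pseudocounts of 0.1 and 5 CPM, a mean of at least 5 CPM, TMM scaling, edgeR 4.0.16 and DESeq2 1.42.0. A replicate block and leaving out each library were the others. The edgeR runs used TMM scaling and the DESeq2 runs its own library scaling. A call lost or gained with TMM scaling, edgeR and DESeq2 alike is therefore not a result of separate checks of the scaling. The test was tried on simulated data with the same small scatter for every gene, so the trial does not cover members that scattered more. Levels of CDK1, CCNB1, PLK1, AURKA, AURKB, BUB1B, MAD2L1, KIF20A, KIF11, KIFC1, CENPA, CENPF, NDC80, BIRC5, TPX2, TOP2A, MKI67, FOXM1, CDC20 and PTTG1, of each group's largest and smallest PC3 changes, and of members that did not pass or went against the majority are given by library; from other lists, up to 3 called genes with the largest changes and up to 3 called against the majority could be named. The members and lists were chosen with earlier results of these data known. Promoters came from RefSeq (GRCh38.p14) and transcript lengths from GENCODE v29. The authors also deposited log2 fold changes and p-values with adjusted p-values, per the file headers, made with edgeR, per the submitters' processing notes; of these, only their marks of changed genes, which followed an adjusted p-value under 0.01 in 100% of genes, were used. Besides the 5 epithelial markers summed, a further marker is not reported here.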

Additional observations from a re-analysis of the deposited data

Results flagged for a closer look

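The response to MYCi975 differed between the lines for 45 members by the test of the difference itself (limma, PC3 log2 fold change minus P493-6 log2 fold change; adjusted p below 0.05 over 11240 genes). The values are log2 differences, all below 0, so PC3 fell further. Of the CDK1 group, the difference was CCNB1 (-0.79), CCNB2 (-0.67), CDC25C (-0.59), CDK1 (-0.59) and CCNA2 (-0.59). Of the other mitotic kinases, the difference was PLK1 (-1.21), AURKB (-0.61), AURKA (-0.59), NEK2 (-0.52) and PLK4 (-0.48). Of the checkpoint genes, the difference was MAD2L1 (-0.69), BUB1 (-0.66), BUB1B (-0.51), TTK (-0.37) and BUB3 (-0.31). Of the APC/C genes, the difference was CDC20 (-0.86), PTTG1 (-0.75) and UBE2C (-0.52). Of the kinesins, the difference was KIF20A (-1.28), KIFC1 (-1.07), KIF2C (-0.88), KIF4A (-0.69), KIF11 (-0.68), KIF22 (-0.54), KIF23 (-0.44), KIF15 (-0.38), KIF14 (-0.32), KIF18A (-0.32) and KIF20B (-0.31). Of the kinetochore genes, the difference was CENPA (-0.61), NUF2 (-0.59), NDC80 (-0.56) and SPC25 (-0.35). Of the passenger subunits, the difference was BIRC5 (-0.90), INCENP (-0.87) and CDCA8 (-0.85). Of the spindle and cytokinesis genes, the difference was ANLN (-0.79), TPX2 (-0.75), DLGAP5 (-0.73), NUSAP1 (-0.71), PRC1 (-0.63) and ECT2 (-0.56). Of the remaining members, the difference was TOP2A (-1.03), MKI67 (-0.78) and FOXM1 (-0.31). The dose was 8 µM in PC3 and 6 µM in P493-6, so dose and line cannot be told apart.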

How the results depend on the processing

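In PC3 the count of 48 lower members was the same under every alternative run. In P493-6 with MYCi975 the 42 lower members became 37 with TMM scaling, 38 with edgeR and 31 with DESeq2, and 36 to 41 without single libraries, lowest without P493-6 MYCi975 replicate 2. Over all genes of that comparison, DESeq2 called 1177 lower, against 2338, and 1270 higher, against 1375; the cause of the fall was not tested. With tetracycline 25 members were lower and 14 higher with TMM scaling and edgeR, 25 and 13 with DESeq2, 29 and 10 with the low-value filter at 5 CPM, and 27 to 29 and 8 to 12 without single libraries. For MYCi975 minus tetracycline the counts were 25 lower and 12 higher with edgeR, 24 and 11 with DESeq2, and 19 to 22 and 13 to 15 without single libraries. For the difference between lines, TMM scaling and edgeR gave 47, a pseudocount of 5 CPM 44, and single libraries left out 43 to 46. Over the 48 members and 5 comparisons, no value changed sign in a called result; of the alternative values 3408 kept the side of the threshold, 103 lost a call and 41 gained one, in 0, 17, 12, 13 and 5 members of the comparisons in the order PC3 MYCi975, P493-6 MYCi975, tetracycline, MYCi975 minus tetracycline, and difference between lines. Same-numbered treated and DMSO libraries did not deviate together (correlations from -0.112 to 0.056), so no pairing by number was seen there. MYCi975 and tetracycline libraries were not compared in this way. With 3 libraries a group, such correlations cannot exclude a pairing. With the number as a replicate block the members called lower were 48, 42, 26, 21 and 44 in that order. Members called higher under the block were 10 (tetracycline) and 14 (MYCi975 minus tetracycline). CENPE and CENPF were those that lost the tetracycline call under the block. With 3 libraries a group, changes of the size seen for BUB3 (-0.09 ± 0.049) or NUF2 (-0.10 ± 0.084) in P493-6 were not told from 0.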
